A study of Mus musculus with 16 samples.

Results

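The 3 peak lists of SmoM2-overexpressing medulloblastomas were set against each other on the 19 autosomes: binding sites of the transcription factor Gli2, regions carrying H3K27ac and regions carrying H3K36me3. The members were taken by genotype, antibody and chromosome. They comprised 136 of the 149 deposited Gli2 peaks, 21211 of 21630 H3K27ac regions and 87539 of 89482 H3K36me3 regions, together 108886 of the 209255 regions in the 6 lists of the series. All 3 lists came from tumours of mice at postnatal day 13 that overexpressed SmoM2, a constitutively active form of Smoothened, the signalling component of the Hedgehog receptor. The series also holds tumours with a double knockout (DKO) of Sufu and Spop. Each list stands for 2 libraries, 6 in all. The sources used here do not give the promoter or Cre line behind SmoM2, whether the libraries came from separate animals, or the number of sequenced reads. No difference below therefore has a replicate check. Intervals are Wilson 95% intervals unless stated and cover counting error over peaks or regions, which are not replicates. Positions are in mouse build mm9, and genes at these positions are not analysed here.

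Hedgehog signalling ends in the Gli proteins, zinc finger factors of which Gli2 acts chiefly as an activator when Smoothened is active. In the cerebellum this pathway drives the division of granule neuron progenitors, and its continuous activity gives rise to medulloblastoma. H3K27ac, an acetyl group on lysine 27 of histone H3, lies on nucleosomes that flank active promoters and enhancers. H3K36me3, laid down by an enzyme that travels with elongating RNA polymerase II, lies over the bodies of transcribed genes.

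With all deposited H3K27ac regions counted, most Gli2 sites of SmoM2 tumours lay in or beside acetylated chromatin. Of the 136 peaks, 77 shared at least 1 base with an H3K27ac region (56.6%, 48.2–64.7%), although H3K27ac regions covered only 0.756% of the autosomes. The share of peaks was thus 74.9 times the share of sequence, a ratio that the width of the peaks raises, since 1 shared base counts. The summit, the base of highest Gli2 signal, lay inside the region for 72 of the 136 peaks (52.9%, 44.6–61.1%). That share was 70.1 times the share of sequence. Each of the 77 peaks overlapped an H3K27ac region of its own, so no region held 2 Gli2 peaks. These 77 regions made up 0.363% (0.291–0.453%) of the H3K27ac list. Nearly all acetylated regions thus lacked a Gli2 peak. The share of acetylated peaks depended on how weak an H3K27ac region was admitted. With the 3592 regions of −log10 q of at least 5 it was 41 of 136 (30.1%, 23.1–38.3%), on 0.290% of the autosomes, and the median summit then lay 64.5 kb away.

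The distances gave a like picture. The median summit lay at 0 kb from H3K27ac (order-statistic 95% interval 0–0.201 kb), against a median of 92.0 kb over all autosomal positions. Within 1 kb of an H3K27ac region lay 93 of 136 summits (68.4%, 60.2–75.6%) and 2.31% of autosomal positions. Beyond that the curve was flat, since widening the limit to 10 kb added only 8 summits and brought the share to 74.3% (66.3–80.9%). A further 18 summits lay between 10 and 100 kb away and 17 lay over 100 kb away. Most Gli2 summits thus lay at or beside acetylated chromatin, and the others were spread over a wide range of distances. Of autosomal positions, 12.6% lay within 10 kb of H3K27ac and 51.8% within 100 kb. The counts by distance therefore do not mark out a separate distant group.

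**Figure D1:**
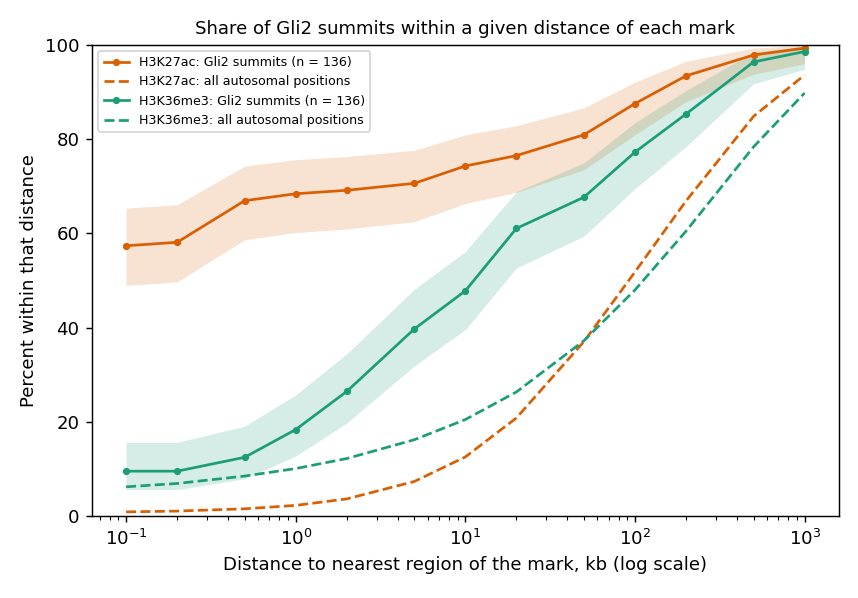
Percent of Gli2 summits (points and solid lines, n = 136, shaded Wilson 95% intervals) and of all autosomal positions (dashed lines) that lie within a given distance of the nearest H3K27ac or H3K36me3 region, with the distance in kb on a log scale. The H3K27ac curve starts above 50% and reaches 68.4% at 1 kb, while the H3K36me3 curve starts near the autosomal level and climbs to 61.0% at 20 kb.

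Several of the strongest Gli2 sites sat just outside acetylated regions or in a gap between a pair of them. Of the 59 peaks that overlapped no H3K27ac region, 16 had their summit at most 1 kb from one. Between 200 and 500 bp outside an H3K27ac region lay 12 summits, on 0.479% of autosomal positions, whereas between 500 bp and 5 kb lay 5 summits on 5.80% of positions. A further 5 summits lay 8 to 58 bp outside a region, but their peaks overlapped it. They are therefore not among the 16. Leaving out overlapping peaks removes summits next to an edge, so the 16 cannot show a preferred distance. At 7 of the 16 sites H3K27ac lay within 1 kb on both sides. The peak at chr10:79266537-79266672 (fold enrichment 14.0) had acetylated regions 403 bp to its left and 217 bp to its right, in a gap of 619 bp. The widest Gli2 peak of the list, 427 bp at chr13:112788656-112789082 (fold enrichment 10.3), lay in a gap of 545 bp, and the peak at chr5:115751103-115751253 (9.58) in a gap of 490 bp. The narrowest gap between any 2 H3K27ac regions in the list was 481 bp, so these gaps were close to the shortest that the deposited list contains. Among positions outside H3K27ac but at most 1 kb from it, 5.95% had acetylation within 1 kb on both sides. The matching count, with overlapping peaks included, was 8 of 21 summits. Joining regions at most 1 kb apart raised the number of overlapping peaks from 77 to 84.

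**Figure D2:**
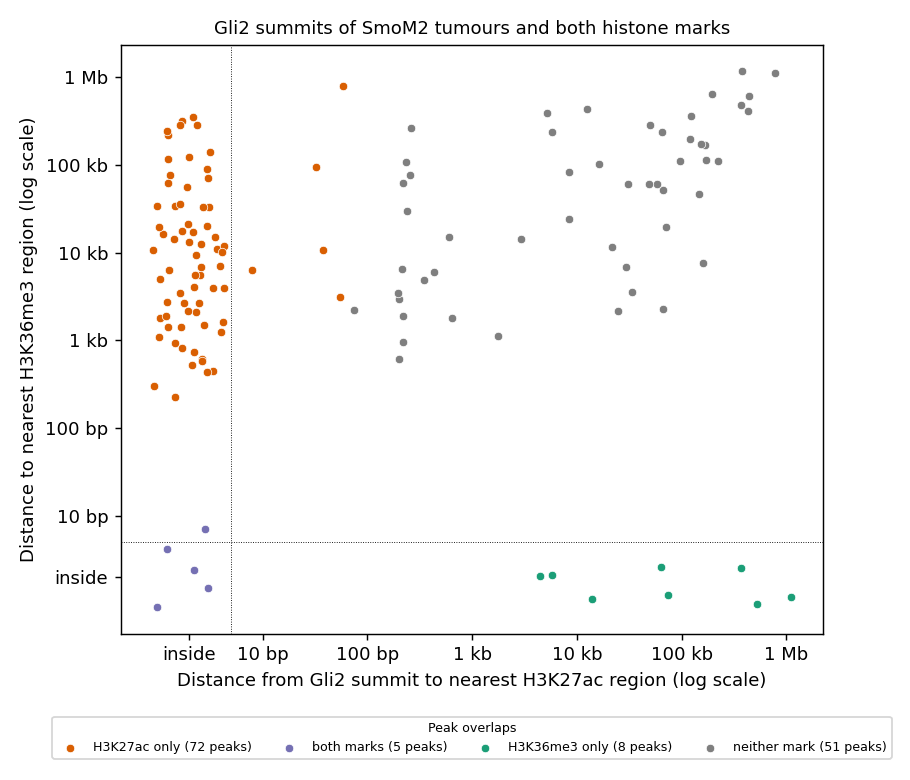
Each point is 1 of the 136 autosomal Gli2 peaks of SmoM2 tumours, placed by the distance of its summit from the nearest H3K27ac region (x axis) and the nearest H3K36me3 region (y axis), both on a log scale, with summits inside a region drawn in a band of their own and spread within it for visibility. Colours give which mark the peak overlaps, and a column of unacetylated peaks stands at 200 to 500 bp from H3K27ac.

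The acetylated regions that held Gli2 were wider than the others and had a higher median enrichment. Their median width was 2576 bp (quartiles 882 and 4458 bp, n = 77), against 524 bp (236 and 1067 bp) for the 21134 regions without a Gli2 peak. Their median H3K27ac fold enrichment was 4.74 (quartiles 4.18 and 6.00), against 3.75 (3.39 and 4.44). These fold values are the authors' own and rank regions only within their list. A wide region offers more sequence for a peak to fall in, so the number of summits was also set against acetylated length. The H3K27ac regions were then split into 10 equal groups by width. In the widest group, from 1895 to 39926 bp, 43 of 2121 regions held a Gli2 peak (2.03%, 1.51–2.72%). That group had 5.89 summits per Mb of acetylated sequence (exact Poisson 95% interval 4.26–7.93), against 3.85 (3.02–4.85) over all acetylated sequence. Group 3 in order of width, from 922 to 1257 bp, had 1.75 summits per Mb (0.477–4.49) and group 4 had 1.18 (0.142–4.25). From group 3 down, 4 summits or fewer stood behind each value, and the narrowest group had 10.6 (2.19–31.1) from 3 summits. Fold enrichment gave no steady order by length. In 10 equal groups by H3K27ac fold, the highest had 5.95 summits per Mb from 28 summits. The lowest had 5.97 from 4 summits, and groups 5 to 9 had at most 2.13.

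**Figure D3:**
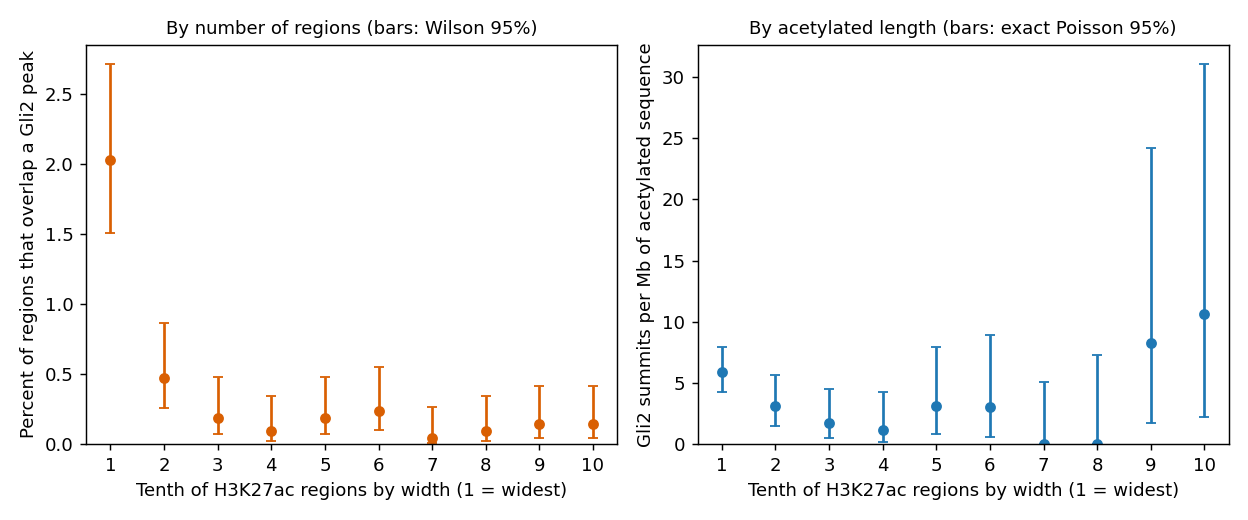
H3K27ac regions of SmoM2 tumours in 10 equal groups by width, with the percent of regions that overlap a Gli2 peak on the left and the number of Gli2 summits per Mb of acetylated sequence on the right. Points are values with 95% intervals, and the widest group stands at 2.03% of regions and 5.89 summits per Mb.

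The widest acetylated region with a Gli2 peak ranked 3 by width in the whole H3K27ac list, 31.5 kb at chr7:86642168-86673713. Its Gli2 peak at chr7:86668906-86669024 (fold enrichment 7.08) lay 4.77 kb from the right end, and 47.1% of the region was also inside H3K36me3. The region at chr10:120856226-120872211 (15.99 kb) held a Gli2 peak of fold enrichment 7.92, and its nearest H3K36me3 lay 2.18 kb away. The regions at chr7:129076874-129092726 (15.9 kb), chr13:63661120-63675884 (14.8 kb) and chr11:60010102-60024233 (14.1 kb) overlapped H3K36me3 over 36.7%, 30.6% and 59.1% of their length. In those 3 regions and in the chr10 region the Gli2 summit lay more than 4 kb from either end. Across the 72 summits inside an H3K27ac region, 53 fell in the middle 50% of its length (73.6%, 62.4–82.4%). The median distance to the nearer edge was 957 bp (order-statistic 95% interval 639–1229 bp). Only 22 of the 72 summits lay at most 500 bp from an edge (30.6%, 21.1–42.0%), while on average 48.9% of the bases of the same regions lie that close.

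Acetylation beyond the region that held the Gli2 peak was measured in the flanks, counted outward from the region's edges so that its own width does not enter. In 10 kb on each side, the 77 regions with a Gli2 peak had a median of 0.73 kb of other H3K27ac (order-statistic 95% interval 0.312–1.23 kb). The 21134 regions without one had 0.126 kb (0.057–0.134 kb). No other H3K27ac lay in these flanks for 21 of the 77 regions (27.3%, 18.6–38.1%) and for 49.3% (48.6–49.9%) of those without Gli2. Among the widest group of regions alone, the flanks held 1.635 kb (0.771–3.286 kb) with a Gli2 peak and 0.777 kb (0.659–0.863 kb) without, and these intervals overlap. The 59 Gli2 peaks outside H3K27ac had a median of 0 kb in the 20 kb around the summit, with no H3K27ac in 35 of them (59.3%). Their mean was 0.999 kb, against 0.151 kb over the autosomes, where only 12.6% of positions lay within 10 kb of H3K27ac. In the plot of profiles the region under the summit or centre is itself counted, so the left panel follows region width as well as neighbouring regions.

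**Figure D4:**
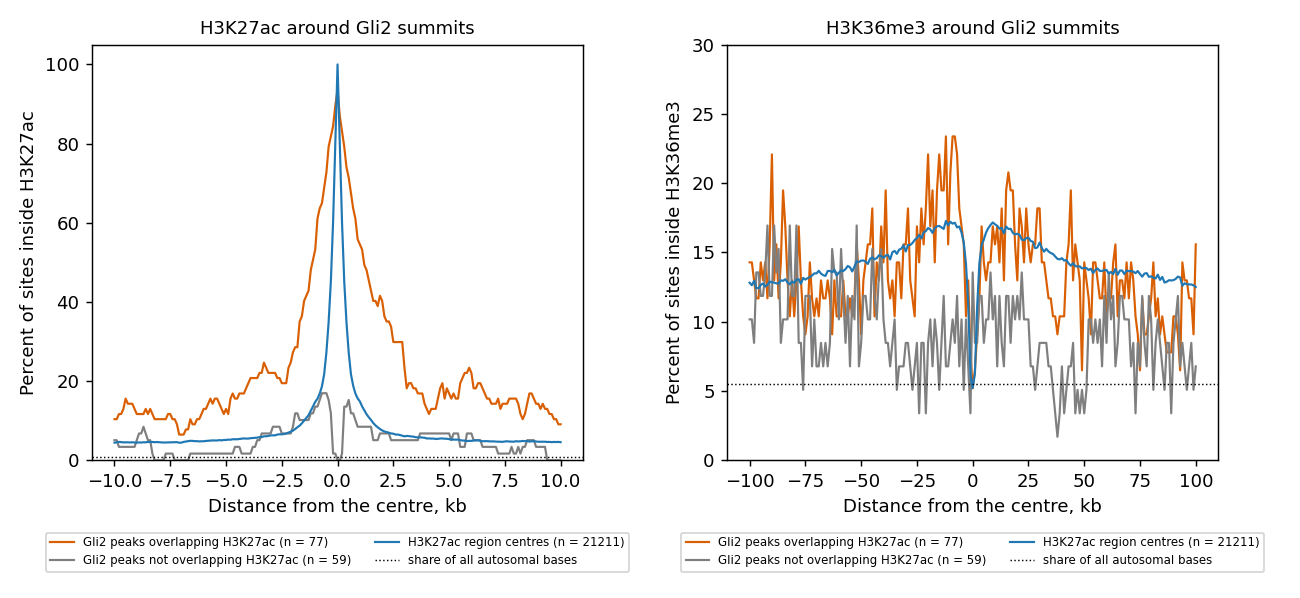
Percent of sites inside H3K27ac (left, up to 10 kb from the centre) and inside H3K36me3 (right, up to 100 kb), around acetylated Gli2 summits (n = 77), the other Gli2 summits (n = 59) and the centres of all H3K27ac regions (n = 21211), with the share of autosomal bases dotted. The region at the centre is counted, so the broader left-hand curve of Gli2 summits includes the greater width of their regions, and H3K36me3 dips to about 5.2% at the centre of both acetylated sets and rises on either side.

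H3K36me3 lay on few Gli2 sites, and most summits had a region of it within 20 kb. Of the 136 peaks, 13 overlapped an H3K36me3 region (9.56%, 5.67–15.7%). The summit itself lay inside for 12 (8.82%, 5.12–14.8%), an interval that holds the 5.54% of autosomal bases in such regions. Of the 61 peaks with −log10 q of at least 10, 3 overlapped H3K36me3 (4.92%, 1.69–13.5%). The median distance from a summit to H3K36me3 was 10.9 kb (order-statistic 95% interval 6.00–17.5 kb), against 113 kb over all autosomal positions. Within 20 kb lay 83 summits (61.0%, 52.6–68.8%) and 26.4% of positions. For the 77 acetylated peaks the median was 6.87 kb (3.50–13.3 kb), and for the other 59 it was 29.7 kb (6.54–82.4 kb), so these intervals overlap. At the summit of acetylated peaks 5.19% of sites were inside H3K36me3, which rose to 15.6% at 5 kb and 18.2% at 10 kb. The centres of all H3K27ac regions gave 5.21%, 16.2% and 17.1% at the same distances. Both sets dipped at the centre to about the share of the autosomes in H3K36me3 and rose on either side. The 59 Gli2 peaks outside H3K27ac had no such dip. For them 13.6% of summits were inside H3K36me3, against 9.32% at 5 kb and 10.2% at 10 kb. Among the 73 acetylated Gli2 peaks with a summit outside H3K36me3, 20 had it within 10 kb on both sides (27.4%, 18.5–38.6%). It lay on 1 side for 17 (23.3%, 15.1–34.2%) and on neither for 36 (49.3%, 38.2–60.5%). For the centres of all H3K27ac regions outside H3K36me3 the matching shares were 21.95%, 34.7% and 43.3%. The shares on both sides and on neither lie inside the intervals of the Gli2 peaks. The share on 1 side lies just above its interval.

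The 13 peaks in H3K36me3 were a mixed set. In 5 of them the peak also overlapped H3K27ac. Of these, chr10:80863366-80863557 (Gli2 fold enrichment 8.00), chr16:44502592-44502814 (7.33) and chr7:86668906-86669024 (7.08) lay in acetylated regions of 7.76, 11.8 and 31.5 kb, and all 3 sites were also in the DKO Gli2 list. The other two, chr5:143652003-143652140 and chr6:89732889-89733025 (both 6.00), lay in acetylated regions of only 122 and 124 bp and were not in the DKO list. The remaining 8 overlapped H3K36me3 alone. The strongest by fold enrichment was chr11:3728216-3728351 (17.5), in an H3K36me3 region of 1.09 kb and 4.40 kb from the nearest H3K27ac. The peaks at chr15:103124734-103124850 (6.25) and chr2:24544730-24544863 (4.53) lay in wider H3K36me3 regions of 9.42 and 6.10 kb. Those at chr12:107294903-107295057 (5.83) and chr5:119197153-119197288 (5.04) lay in regions of 1.66 and 0.511 kb.

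At 4 of the 13 sites the H3K36me3 region was at most 200 bp wide and had almost the same ends as the Gli2 peak. Such narrow regions made up 17.5% of the H3K36me3 list by number, a share inside the interval of 4 of 13 (30.8%, 12.7–57.6%). By length they made up 1.66% of its bases, a share below that interval. At chr17:94538663-94538781 the H3K36me3 region of 122 bp shared 119 bp with the Gli2 peak. It had the highest fold enrichment (8.30) and the highest −log10 q (22.3) of all 87539 H3K36me3 regions, while the Gli2 peak there ranked 111 of 136. At chr18:85867387-85867537 the H3K36me3 region of 138 bp lay wholly inside the Gli2 peak, which ranked 3 of 136 by −log10 q. The sites at chr17:77811080-77811196 and chr6:89732889-89733025 had H3K36me3 regions of 113 and 120 bp, also wholly inside the Gli2 peak. The local background of fragments, recovered from the deposited fold and p, was 5 at both chr17 sites, 24.99 at the chr18 site and 2.5 at the chr6 site. The floor of 1.40 was shared by only 47 of the 136 peaks. With H3K36me3 regions over 200 bp wide alone, 9 of 136 Gli2 peaks overlapped (6.62%, 3.52–12.1%). The part of local background in these overlaps was not tested.

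By both marks together, 72 peaks overlapped H3K27ac only, 5 both marks, 8 H3K36me3 only and 51 neither. The sequence in the 4 states was 0.717%, 0.0391%, 5.50% and 93.7% of the autosomes. Summits numbered 3.84 per Mb in sequence with H3K27ac only and 4.14 per Mb in sequence with both marks, the latter from 4 summits. In sequence with H3K36me3 only they numbered 0.0589 per Mb, and with neither mark 0.0242 per Mb. The ranges of Gli2 fold enrichment overlapped between the classes. The median was 7.42 (quartiles 6.25 and 9.28) with H3K27ac only, 7.08 (6.00 and 7.33) with both, 5.82 (4.91 and 6.40) with H3K36me3 only and 6.67 (5.28 and 10.1) with neither. Of all 136 peaks, 82 lay at a site in the DKO Gli2 list (60.3%, 51.9–68.1%). Of the peaks with H3K27ac only, 57 of 72 did (79.2%, 68.4–86.9%), against 20 of 51 with neither mark (39.2%, 27.03–52.9%). The shares were 3 of 5 with both marks (23.1–88.2%) and 2 of 8 with H3K36me3 only (7.15–59.1%), too few to place against the other classes. The 51 peaks with neither mark included the 16 whose summit lay at most 1 kb from H3K27ac. Most of those 16 were in the DKO list, and most of the other peaks with neither mark were not.

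Peak strength and acetylation did not go together in a simple order. With the 136 peaks in 4 groups of 34 by −log10 q, H3K27ac overlapped 16 of 34 in the highest group (47.1%, 31.5–63.3%) and 24 of 34 in both middle groups (70.6%, 53.8–83.2%). In the lowest group it overlapped 13 of 34 (38.2%, 23.9–55.0%). By fold enrichment the 4 shares were 52.9%, 76.5%, 55.9% and 41.2%, from the highest group to the lowest. The intervals of neighbouring groups overlap by either measure. H3K36me3 overlapped 3, 3, 3 and 4 peaks of the groups by −log10 q.

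The 10 highest Gli2 peaks by −log10 q showed the same mixture. The first, chr1:157059649-157059879 (fold enrichment 25.2), lay in an acetylated region of 13.9 kb, with H3K36me3 1.09 kb away. Also acetylated were chr6:51542366-51542505 (17.1), in a region of 2.87 kb, and chr14:54763634-54763840 (14.4), in one of 3.62 kb. The peak at chr11:53953566-53953790 (2.58) overlapped an H3K27ac region of only 185 bp with a fold enrichment of 1.57, the lowest of the list, and had a recovered background of 205 fragments. Both chr3:67514928-67515056 (15.2) and chr10:79266537-79266672 (14.0) missed H3K27ac by a short distance, 233 and 217 bp from the summit. The peaks at chr9:103497639-103497773 (15.0) and chr1:122837252-122837374 (16.7) lay 16.1 and 124 kb from H3K27ac and 102 and 359 kb from H3K36me3. The chr18 and chr11 peaks inside H3K36me3 described above ranked 3 and 4.

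A small set of Gli2 sites lay far from both marks. Of the 17 summits over 100 kb from H3K27ac, 12 were also over 100 kb from H3K36me3 and 3 were inside it. The summit farthest from H3K27ac was the chr18 peak above, at 1108 kb. It was followed by chr10:54607195-54607370 (fold enrichment 3.80) at 775 kb, the chr17:77811080-77811196 peak (6.83) at 518 kb, chr9:80932608-80932730 (5.42) at 442 kb and chr6:14363254-14363418 (12.9) at 432 kb. The chr10, chr9 and chr6 sites lay 1129, 604 and 409 kb from H3K36me3. Of these 5, the chr18 peak alone was in the DKO Gli2 list. A single pair of summits lay within 10 kb of each other, 1143 bp apart at chr5:15164279-15164453 and chr5:15165466-15165644. Both members overlapped H3K27ac, with fold enrichments of 5.51 and 5.17 and recovered backgrounds of 3.90 and 5 fragments.

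**Figure D5:**
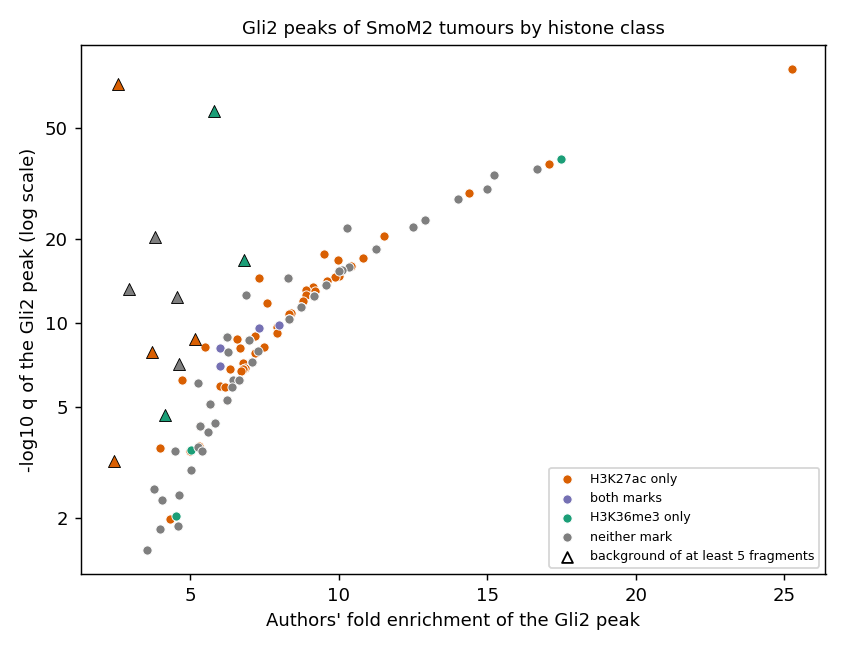
The authors' fold enrichment (x axis) and −log10 q (y axis, log scale) of each of the 136 autosomal Gli2 peaks, coloured by the histone mark the peak overlaps, with triangles for the 11 peaks whose recovered local background was at least 5 fragments. The 5 peaks with both marks lie between fold enrichments of 6.00 and 8.00, the other 3 classes spread more widely, and the triangles lie to the left, up to a fold enrichment of 6.83.

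The local background differed between sites, and 11 of the 136 peaks had one of at least 5 fragments. Of these, 4 overlapped H3K27ac (36.4%, 15.2–64.6%) and 3 overlapped H3K36me3 (27.3%, 9.75–56.6%). Among the 47 peaks at the floor, 24 overlapped H3K27ac (51.1%, 37.2–64.7%) and 3 H3K36me3 (6.38%, 2.19–17.2%). In the 78 peaks between, 49 overlapped H3K27ac (62.8%, 51.7–72.7%) and 7 H3K36me3 (8.97%, 4.42–17.4%). Without the 11 peaks the shares over the list were 58.4% and 8.00%, both within the intervals given above.

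The histone marks shared little sequence but often lay near each other. Of 21211 H3K27ac regions, 1857 overlapped H3K36me3 (8.75%, 8.38–9.14%), and 5.17% of H3K27ac bases lay inside H3K36me3, close to its 5.54% share of the autosomes. Within 10 kb, however, 59.7% (59.0–60.3%) of H3K27ac regions had an H3K36me3 region, and 20.5% of autosomal positions lie that close or inside. Of the H3K27ac regions with a Gli2 peak, 20 of 77 overlapped H3K36me3 (25.97%, 17.5–36.7%), against 8.69% (8.32–9.08%) of those without. Of the 10 groups by width, the widest overlapped H3K36me3 most often, at 19.6% (17.98–21.4%). The other 9 lay between 5.61% and 10.4%, with the highest of these in the narrowest group. Within the widest group the shares were 16 of 43 with a Gli2 peak (37.2%, 24.4–52.1%) and 400 of 2078 without (19.2%, 17.6–21.0%). The median widths there still differed, at 4232 and 2677 bp. The share within 10 kb was 55.8% (44.7–66.4%) with and 59.7% without a Gli2 peak, a difference within the interval of the smaller set.

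Set beside DKO tumours, the overlap with H3K27ac compared differently as a share of peaks and relative to the sequence covered. In DKO tumours 753 of 1397 autosomal Gli2 peaks overlapped H3K27ac of those tumours (53.9%, 51.3–56.5%). The SmoM2 share was 2.72 percentage points higher, with a Newcombe 95% interval of -6.07 to 11.2 points. Among as many DKO peaks as the SmoM2 list holds, taken from the top by −log10 q, the share was 74.3% (66.3–80.9%), and the SmoM2 share differed by -17.6 points (-28.3 to -6.35). For H3K36me3 the SmoM2 share was 7.20 points (3.20–13.3) above the 2.36% of all DKO peaks and 4.41 points (-1.998 to 11.1) above the 5.15% of the same top DKO peaks. H3K27ac covered 1.01% and H3K36me3 6.58% of the autosomes in the DKO lists. Relative to covered sequence, H3K27ac overlap was 74.9-fold in SmoM2 tumours, 53.5-fold for all DKO peaks and 73.7-fold for the top DKO peaks. For H3K36me3 the ratios were 1.73, 0.359 and 0.783. All these ratios set peaks sharing at least 1 base against single bases, so the width of the peaks raises them. For SmoM2 summits alone they were 70.1 for H3K27ac and 1.59 for H3K36me3. The intervals treat peaks as independent and hold no variation between animals.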

How the data were processed

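ChIP-seq peak lists of SmoM2 tumours for Gli2, H3K27ac and H3K36me3 were used, 1 list for the 2 libraries of each antibody, per the labels, and the matching DKO lists beside them. MACS2, BWA, bedtools and Trimmomatic 0.36 are named with build mm9 per the submitters' processing notes. Neither settings, nor the way libraries were merged, nor the control are given in the sources used here. An Olig2 antibody on the beads is also named in the labels' protocol, so lists are named by each sample's antibody label. The authors deposited start, end and, for Gli2, summit positions (other columns), a fold enrichment (ratio) over background, p and q values as −log10, and a score of 10 times −log10 q. Read numbers are not stated, so depth is unknown.

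Regions on chromosomes 1 to 19 were kept. Overlap meant at least 1 shared base. Distances ran from the summit (start plus offset) to the nearest region edge, 0 inside. Shares and medians over all autosomal positions were counted exactly on mm9 chromosome lengths, assembly gaps included. Fragments and background at each Gli2 summit were solved from fold and −log10 p, with a largest error of 0.000137 in −log10 p. Distances, overlaps and this recovery were checked on simulated data. No test was run, since each list stands for both libraries.

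Positions named were the 10 highest Gli2 peaks, all in H3K36me3, the 5 summits farthest from H3K27ac, the 5 widest H3K27ac regions with a Gli2 peak, regions with 2 or more peaks, and summits at most 10 kb apart. Sites in gaps beside H3K27ac and sites in narrow regions were named after their values were seen. Members and lists were chosen with earlier results of these data known. Computation used scipy 1.17.1, pandas 2.3.3 and numpy 2.4.6 under Python 3.11.15, and figures matplotlib 3.10.9.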

Additional observations from a re-analysis of the deposited data

Results flagged for a closer look

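The Gli2 list of SmoM2 tumours held 13 peaks on sequences that the autosomal comparisons do not use, which is why they are given here. Chromosome Y had 8, with fold enrichments of 1.69 to 2.37, and 7 of them overlapped H3K27ac. Chromosome X had 4, with fold enrichments of 2.64 to 5.60, and 2 overlapped H3K27ac. The mitochondrial sequence had 1 (2.12), outside both marks, and the H3K27ac list held no region on that sequence to overlap. None of the 13 overlapped H3K36me3.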

How the results depend on the processing

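Of the values under other settings, 32 stayed within the reported interval and 13 moved outside it. All 8 values from settings added after seeing the data, which left out peaks with a background of at least 5 or histone regions of at most 200 bp, stayed within. With histone regions of −log10 q of at least 5, which kept 3592 H3K27ac and 789 H3K36me3 regions, the share of Gli2 peaks in H3K27ac was 30.1% and in H3K36me3 2.21%. Those regions covered only 0.290% and 0.223% of the autosomes. The 3 peaks in such H3K36me3 regions included the narrow sites at chr18:85867387-85867537 and chr17:94538663-94538781. The median distances were then 64.5 kb and 599.8 kb, against 443 kb and 1915 kb over autosomal positions. The share of H3K27ac regions overlapping H3K36me3 was 0.529%. With regions within 1 kb counted, the 3 shares were 68.4%, 19.1% and 17.6%. With regions at most 10 kb apart joined, the share of Gli2 peaks in H3K36me3 was 26.5% and that of H3K27ac regions 22.1%. The joined H3K36me3 regions covered 10.97% of the autosomes. Among Gli2 peaks with −log10 q of at least 10, 3 of 61 overlapped H3K36me3 (4.92%, 1.69–13.5%). The share of H3K27ac regions overlapping H3K36me3 was 7.68% with a fold of at least 3 and 5.10% with at least 50% of the region inside. The cause of these shifts was not tested beyond the fewer or longer regions themselves. No paired analysis was possible because the 2 libraries of an antibody share 1 peak list, and for that reason no replicate could be left out.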

Other observations

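Gli2 peaks were unevenly spread over the autosomes, although each value rests on few peaks, from 1 to 17, and has no interval. Chromosome 5 had 10.5 peaks per 100 Mb (16 peaks, 10 of them acetylated), chromosome 8 had 9.87 (13 and 7), chromosome 2 had 9.35 (17 and 9) and chromosome 11 had 9.03 (11 and 6). Chromosome 1, the longest, had only 4 peaks (2.03 per 100 Mb), and chromosome 19 had 1 (1.63), which was not acetylated. H3K27ac covered 1.28% of chromosome 11, 0.880% of chromosome 5, 0.577% of chromosome 1 and 0.774% of chromosome 19. The same chromosomes had 8.92%, 7.23%, 4.47% and 6.03% of their sequence in H3K36me3.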
